A study of Homo sapiens with 6 samples.

Results

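Genes of the cornified envelope and its cross-linking were examined in MCF10.AT1 cells and in MCF10.AT1-R, a fluvastatin-resistant line derived from them. They were IVL, TGM1, SCEL, CNFN, EVPL, PPL, CDSN, LOR, FLG and KRT10, which are 10 of the 81496 gene symbols in the deposited table. They were picked by name with earlier results of this comparison known, and where a gene had several probe sets the one with the highest mean would have been taken, but each had only 1. MCF10.AT1 is a preneoplastic human breast epithelial line of the MCF10A series, sensitive to fluvastatin, and its arrays came from untreated cells. MCF10.AT1-R was selected by exposing MCF10.AT1 to fluvastatin, an inhibitor of HMG-CoA reductase, at doses rising from 1 to 20 µM. The labels give MCF10.AT1 medium for both lines, which holds horse serum, calcium chloride, EGF, hydrocortisone and insulin. Whether fluvastatin was in the medium at harvest, and whether the resistant line is a single clone, is not given in the sources used here. Total RNA went onto 6 Clariom D arrays, 3 per line, and the values are log2 RMA expression values. The arrays compared were A01 and A02 of MCF10.AT1 and B02, B03 and B04 of MCF10.AT1-R, while A03 of MCF10.AT1, removed by the study as an outlier, is given apart. The labels call the arrays biological replicates without naming what was repeated, so the p-values measure only the spread between these arrays. In the main test this spread was pooled over all tested probe sets.

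The cornified envelope is a protein shell that forms beneath the plasma membrane of keratinocytes as they end their differentiation. Scaffold proteins such as involucrin, envoplakin and periplakin are laid down early, and transglutaminases join them through bonds between glutamine and lysine side chains. Loricrin and filaggrin belong to the late stage in the upper epidermis, and the mammary gland is not known for making such a shell.

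IVL and SCEL, genes of 2 early envelope proteins, were 9.39-fold and 11.1-fold higher in MCF10.AT1-R. CDSN, which encodes the adhesion protein corneodesmosin, was 2.20-fold higher. TGM1, the membrane-bound transglutaminase of keratinocytes, EVPL, and the late genes LOR and FLG had log2 changes between -0.22 and -0.02, none past the test. The filter described next removed EVPL, LOR and FLG, which were tested only in a fit without it. TGM1 and LOR were above the 95th percentile of the negative controls on 1 of the 5 arrays each, and FLG on 0. This limits what change could have been seen in TGM1, LOR and FLG. A filter on low and invariant probe sets left 7 of the 10 genes, of which 3 passed a false discovery rate (FDR) of 5% in limma, all higher in MCF10.AT1-R. Of the 51457 probe sets tested, 0.758% passed in that direction, 0.447% in the other and 1.2% in either. Since the genes were proposed with this comparison known, their count is a description only.

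The promoters of IVL and SCEL are shown because these genes rose most, and those of LOR and FLG because these late genes did not pass the test. RefSeq promoter entries (GRCh38.p14) were found for 7 of the 10 genes. The 250 bases before the annotated start were searched for TGANTCA. This is a loose form of the site of AP-1 factors, known regulators of the involucrin gene, with any base allowed at N. The search covered both strands, on which this motif reads alike. The windows are chr1:152908296-152908545 on the plus strand for IVL, chr13:77535456-77535705 on the plus strand for SCEL, chr1:153259437-153259686 on the plus strand for LOR (LORICRIN in RefSeq) and chr1:152325240-152325489 on the minus strand for FLG. Each is written 5′ to 3′ along its gene, and the capitals mark the motif.
IVL: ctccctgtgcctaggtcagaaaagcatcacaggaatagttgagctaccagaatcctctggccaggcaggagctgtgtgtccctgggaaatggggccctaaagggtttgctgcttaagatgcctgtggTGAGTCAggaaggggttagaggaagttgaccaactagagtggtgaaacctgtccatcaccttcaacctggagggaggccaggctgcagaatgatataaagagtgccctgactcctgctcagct
SCEL: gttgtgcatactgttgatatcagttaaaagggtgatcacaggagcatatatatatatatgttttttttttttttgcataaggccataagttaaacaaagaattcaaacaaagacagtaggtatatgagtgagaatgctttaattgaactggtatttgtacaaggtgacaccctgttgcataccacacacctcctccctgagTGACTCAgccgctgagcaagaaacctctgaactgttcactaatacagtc
LORICRIN: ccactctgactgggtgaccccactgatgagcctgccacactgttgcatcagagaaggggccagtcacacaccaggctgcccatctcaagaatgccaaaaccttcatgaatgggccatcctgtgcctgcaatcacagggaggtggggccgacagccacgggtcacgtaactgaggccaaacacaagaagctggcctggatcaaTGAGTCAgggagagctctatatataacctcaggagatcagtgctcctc
FLG: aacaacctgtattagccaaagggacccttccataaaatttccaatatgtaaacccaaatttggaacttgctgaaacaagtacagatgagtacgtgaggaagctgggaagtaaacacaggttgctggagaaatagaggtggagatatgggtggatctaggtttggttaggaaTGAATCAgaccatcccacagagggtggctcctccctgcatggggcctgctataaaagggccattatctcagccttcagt
The motif begins 123 bases before the start of IVL (TGAGTCA), 49 before SCEL (TGACTCA), 48 before LORICRIN (TGAGTCA) and 79 before FLG (TGAATCA). It was present in 4 of the 7 promoters, and its part in any change was not tested. Of 35116 RefSeq promoters, 6.57% hold it in the same window. CDSN, CNFN and KRT10 had no match. These are matches of letters and do not show binding by any factor.

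Involucrin is the glutamine-rich scaffold to which other envelope proteins are joined. IVL (probe set TC0100010013.hg.1) read 3.58 on A01 and 3.44 on A02, and 6.83, 6.27 and 7.13 on B02, B03 and B04. Every MCF10.AT1-R array lay above both MCF10.AT1 arrays, by at least 2.68. The MCF10.AT1 arrays averaged 3.51 ± 0.10 (SD, n = 2) and those of the resistant line 6.74 ± 0.44 (SD, n = 3). IVL thus rose by 3.23 on the log2 scale, with a standard error of 0.31 and an adjusted p of 9.18e-22 from limma.

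Sciellin is another substrate of transglutaminase in stratified epithelia. SCEL (TC1300007561.hg.1) read 3.73 on A01 and 3.91 on A02, and 7.47, 7.20 and 7.22 on B02, B03 and B04. The lines were 3.29 apart at their nearest arrays, the widest gap of the 10 genes. The parental arrays averaged 3.82 ± 0.13 (SD, n = 2) and the resistant ones 7.30 ± 0.15 (SD, n = 3). SCEL rose by 3.47 on the log2 scale, with a standard error of 0.31 and an adjusted p of 3.37e-25 from limma. Ordered by the size of the rise, SCEL stood at place 13 and IVL at place 19 of the 51457 probe sets. The fit gave all probe sets a common SD of 0.34, so a call there depended only on the size of the change, at least 1.07. A fit with only the low-expression filter let each variance differ. In that fit, which called 0.217% of probe sets higher, limma gave an adjusted p of 0.00718 for IVL and 0.00155 for SCEL. With A03 added to MCF10.AT1 it was 0.0387 for each gene.

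**Figure D1:**
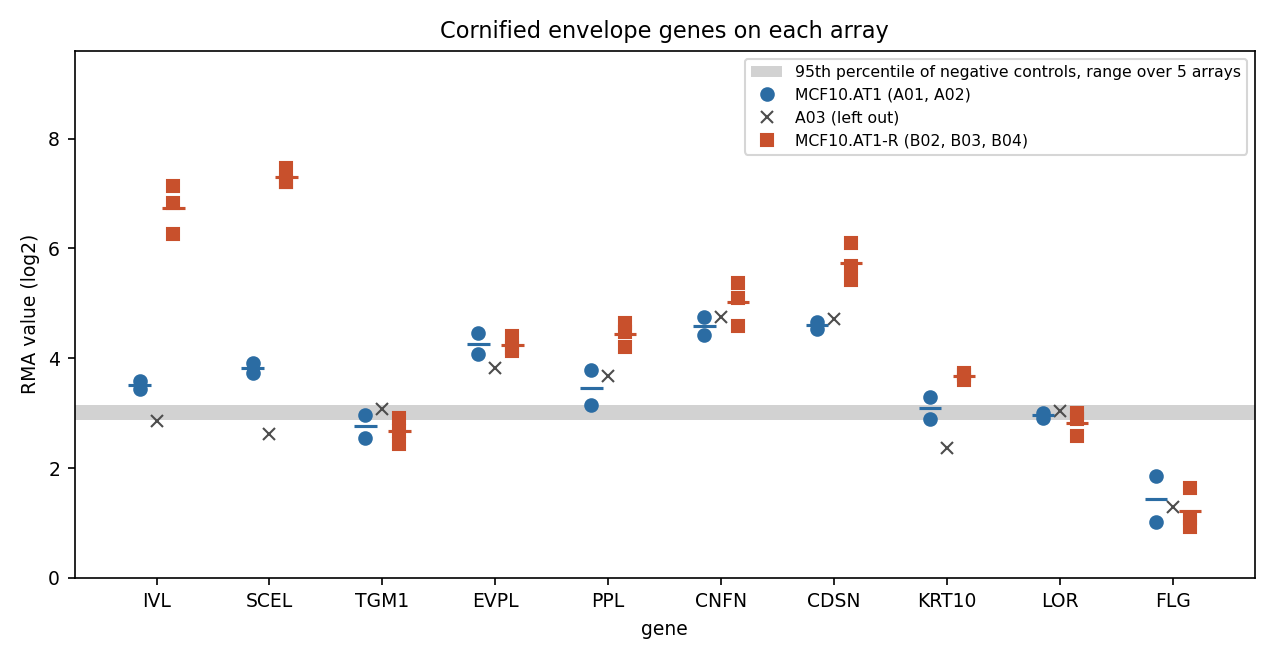
RMA values (log2) of the 10 genes on each array, with bars for the mean of each line, A03 as a cross, and a grey band for the 95th percentile of the negative controls over the 5 arrays. IVL and SCEL lie between 6.27 and 7.47 on the 3 MCF10.AT1-R arrays and between 3.44 and 3.91 on A01 and A02, while TGM1, LOR and FLG lie in or under the band in both lines.

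Transglutaminase 1 is the enzyme that joins involucrin to its partners at the keratinocyte membrane. TGM1 (TC1400008748.hg.1) read 2.55 on A01 and 2.97 on A02, and 2.91, 2.67 and 2.43 on B02, B03 and B04, so the lines overlapped. The 95th percentile of the 612 negative control probe sets, taken here as the limit of background, was 2.88 to 3.14 on these arrays, and TGM1 was above it on 1 of the 5. Its log2 change was -0.09 (95% interval -0.70 to 0.52, adjusted p = 0.949 from limma). A signal this close to background limits what change could have been seen. The other transglutaminase genes (TGM2 to TGM7 and F13A1) were read beside it, and with TGM1 6 of the 8 were tested. By limma 0 of these passed in either direction, 0 had an unadjusted p under 0.05, and 0 passed with the trend option. Their median log2 change was -0.08, against -0.02 over all tested symbols, and the largest changes were 0.47 for TGM7, which was within background on all 5 arrays, and -0.42 for TGM3.

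Envoplakin and periplakin are plakin proteins that tie keratin filaments and desmosomes to the envelope. EVPL (TC1700011782.hg.1) read 4.07 and 4.45 on A01 and A02, and 4.13, 4.41 and 4.18 on B02, B03 and B04. The lines overlapped, and the log2 change was -0.02 (95% interval -0.50 to 0.45, adjusted p = 0.991 from limma without a filter, where 0.105% of probe sets were called higher, since the filter removed EVPL as invariant). PPL (TC1600009252.hg.1) read 3.78 and 3.14 on A01 and A02, and 4.21, 4.65 and 4.48 on B02, B03 and B04. Here the lines did not overlap, with 0.42 between them. The log2 change of 0.98 (95% interval 0.37 to 1.59) did not pass the test (adjusted p = 0.0984 from limma), though it did when the variance was allowed to follow the expression level (adjusted p = 0.0459 from limma with the trend option, in which 1.69% of probe sets were called higher). Of the 7 plakin genes 5 were tested, and DSP, which encodes desmoplakin of the desmosome, rose. DSP read 5.84 and 5.87 on the MCF10.AT1 arrays and 7.23, 7.32 and 7.26 on those of MCF10.AT1-R, which is a rise of 1.41 (adjusted p = 0.00113 from limma). The DSP call was lost in limma without A01 (adjusted p = 0.0826) or A02 (0.0843). EPPK1, for epiplakin, had the next largest change of this family, 1.01 (adjusted p = 0.0792 from limma).

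Corneodesmosin holds cells of the outer epidermal layers together, and cornifelin is a small protein of the envelope. CDSN (TC0600011402.hg.1) read 4.53 and 4.67 on A01 and A02, and 5.67, 5.42 and 6.10 on B02, B03 and B04. The lines were 0.76 apart, and CDSN rose by 1.14 on the log2 scale (adjusted p = 0.0269 from limma). The CDSN call was lost in limma with the low-expression filter alone (adjusted p = 0.199), with A03 added (0.777), and without A01 (0.431), A02 (0.273), B02 (0.0598) or B04 (0.231). CNFN (TC1900010801.hg.1) read 4.43 and 4.75 on A01 and A02, and 5.38, 5.09 and 4.58 on B02, B03 and B04. B04 fell between the MCF10.AT1 arrays, and the log2 change of 0.43 (95% interval -0.18 to 1.04) did not pass the test (adjusted p = 0.795 from limma).

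Keratin 10 pairs with keratin 1 in filaments of suprabasal keratinocytes. KRT10 (TC1700010639.hg.1) read 2.89 and 3.30 on A01 and A02, and 3.72, 3.70 and 3.60 on B02, B03 and B04. The MCF10.AT1-R arrays lay 0.30 above the highest MCF10.AT1 array, but A01 was within background, and the log2 change of 0.58 (95% interval -0.03 to 1.19) did not pass the test (adjusted p = 0.648 from limma). KRT1 read 3.54 and 3.53 on A01 and A02, and 4.48, 4.77 and 4.65 on B02, B03 and B04. KRT1 thus rose by 1.10 (adjusted p = 0.0366 from limma), as 1 of the 4 suprabasal keratins, all tested. The KRT1 call was lost in limma with the low-expression filter alone (adjusted p = 0.0966), with A03 added (0.777), and without any single one of the 5 arrays (0.0532 to 0.437).

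Loricrin is the main late protein of the epidermal envelope, and filaggrin bundles keratins before it is broken down. LOR (TC0100010028.hg.1) read 2.92 and 3.00 on A01 and A02, and 2.58, 2.89 and 3.00 on B02, B03 and B04. FLG (TC0100015830.hg.1) read 1.85 and 1.02 on A01 and A02, and 1.09, 0.93 and 1.64 on B02, B03 and B04. The lines overlapped for both genes, with LOR above background on B04 only and FLG on no array. The log2 changes were -0.14 for LOR (95% interval -0.60 to 0.33) and -0.22 for FLG (95% interval -0.92 to 0.48), with adjusted p of 0.936 and 0.931 from limma without a filter, which had removed both. Beside them, the early genes IVL and SCEL changed by 3.23 and 3.47, and TGM1 by -0.09. The difference between early and late genes is a description of single probe sets and was not tested.

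**Figure D2:**
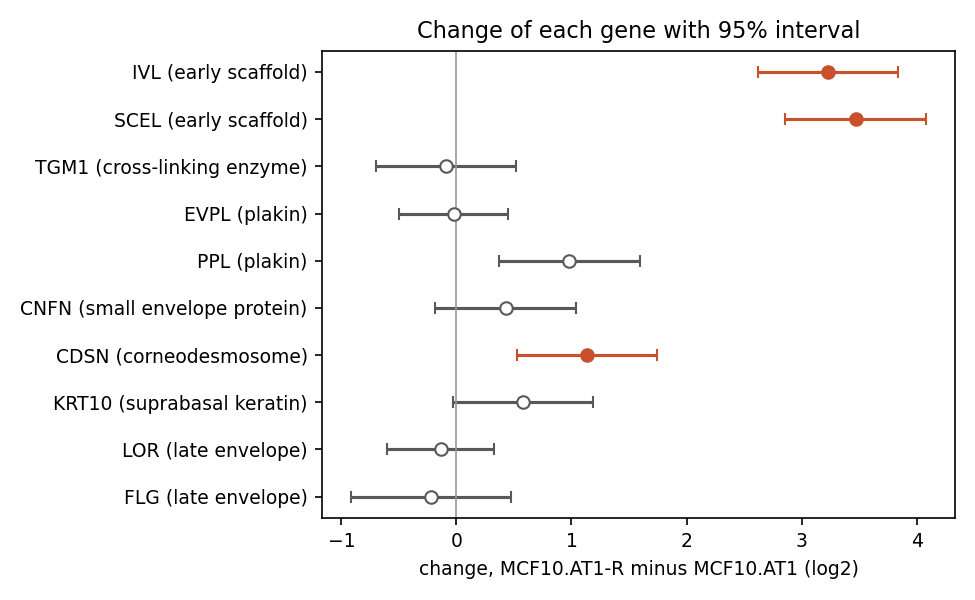
Log2 change of each of the 10 genes, MCF10.AT1-R minus MCF10.AT1, with its 95% interval from limma and filled points for genes past the FDR of 5%. The intervals of IVL, SCEL, CDSN and PPL lie above 0, of which PPL did not pass the FDR, and those of the other 6 genes include 0.

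Counting all 10 genes, 5 had every MCF10.AT1-R array above both MCF10.AT1 arrays (IVL, SCEL, PPL, CDSN and KRT10) and the other 5 overlapped. Among all 135750 transcript probe sets 12.2% were separated in that direction. The median log2 change of the 10 genes was 0.50, against -0.01 over the tested probe sets. IVL, SCEL, EVPL, PPL, CNFN and CDSN were above background, as the limit from the negative controls, on all 5 arrays. Background probe sets of high GC content averaged higher, 3.82 to 4.24 on these arrays. IVL, SCEL and PPL read below that mean on A01 and A02, and EVPL on A01 and B04. The GC content of the genes' own probes was not examined.

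Genes that act with these proteins in the epidermis were read in 8 lists, which held 66 genes besides the 10. Of the 66, 52 were tested, 7 rose and 1 fell, against 0.758% higher and 0.447% lower of all tested probe sets. The median log2 change of the 66 was 0.20, against -0.02 over all tested symbols. The lists were chosen with earlier results known, so their counts are a description only. Among 9 late proteins of the epidermal differentiation complex, LOR and FLG included, 4 were tested and by limma 0 passed, 0 had an unadjusted p under 0.05, and 0 passed with the trend option. None of these 9 was above background on all 5 arrays, and the largest changes were -0.44 for KPRP and 0.43 for RPTN, which was within background on all 5. Among the 18 late cornified envelope (LCE) genes 14 were tested, and by limma 0 passed, 1 had an unadjusted p under 0.05, and 0 passed with the trend option. Their median change was 0.03, 9 of them were above background on all 5 arrays, and the largest changes were 0.43 for LCE4A and -0.67 for LCE6A, which was within background on all 5 arrays. The brightest, LCE1E, LCE1C and LCE1B, read 8.26, 6.80 and 6.15 on A01. They read 8.11, 6.48 and 6.13 on A03, where the hybridisation controls averaged 5.99 against 10.35 on A01. Whether these probe sets read LCE transcripts was not tested.

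The genes of filaggrin processing moved both ways. PRSS8, which encodes prostasin, a protease upstream of filaggrin cleavage, read 3.74 and 4.41 on A01 and A02, and 5.72, 5.05 and 5.55 on B02, B03 and B04. It rose by 1.36 (adjusted p = 0.00221 from limma). BLMH, which encodes bleomycin hydrolase, an enzyme that breaks filaggrin down to amino acids, read 5.01 and 4.22 on A01 and A02, and 3.32, 2.98 and 3.29 on B02, B03 and B04. It fell by 1.42 on the log2 scale (adjusted p = 0.00101 from limma). These were 2 of the 6 tested of 7 genes, whose substrate FLG was within background throughout. Both calls were lost with the low-expression filter alone (adjusted p = 0.204 for PRSS8 and 0.152 for BLMH from limma) and without A01 (0.488 and 0.486).

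Of 10 genes that build the lipid envelope around the protein shell, 7 were tested and 2 rose. ABCA12, a lipid transporter of lamellar granules, read 5.49 and 5.18 against 6.83, 6.56 and 6.75 in array order, which is a rise of 1.38 (adjusted p = 0.00178 from limma). ELOVL4, which elongates very long fatty acids, read 3.42 and 4.01 against 5.12, 4.49 and 5.58, which is a rise of 1.35 (adjusted p = 0.00259 from limma). With the low-expression filter alone these adjusted p-values from limma were 0.0585 and 0.324. The ABCA12 call was also lost without A02 (0.256), and that of ELOVL4 without A01 (0.455) or B04 (0.106). Another 5 genes of this list, ALOX12B, CERS3, CYP4F22, PNPLA1 and SDR9C7, were within background on all 5 arrays.

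Of 9 secreted and cytosolic proteins of the upper layers, all tested, 2 protease inhibitors rose. CST6, for cystatin M/E, read 5.89 and 6.05 against 7.95, 8.04 and 8.33, which is a rise of 2.14 (adjusted p = 4.97e-09 from limma). CSTA, for cystatin A, read 5.16 and 5.08 against 7.11, 6.74 and 6.78, which is a rise of 1.76 (adjusted p = 6.63e-06 from limma). Both kept their calls with the low-expression filter alone (adjusted p = 0.00977 for CST6 and 0.0219 for CSTA from limma). With A03 in MCF10.AT1 none of the 8 called genes of these lists passed.

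**Figure D3:**
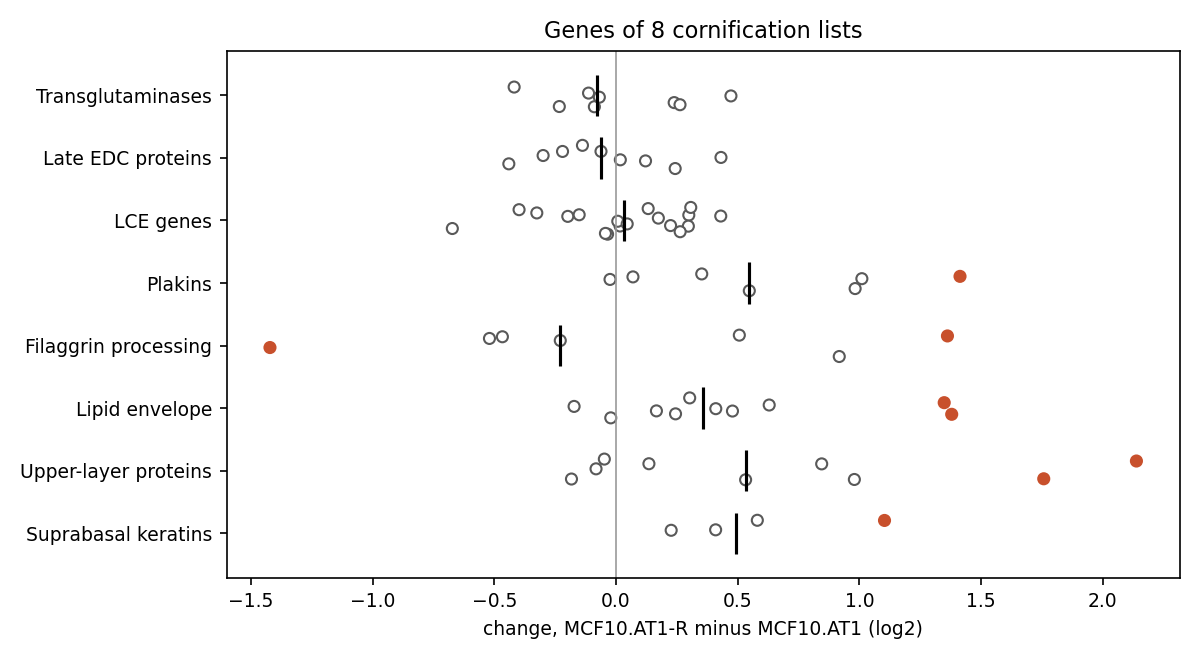
Log2 change, MCF10.AT1-R minus MCF10.AT1, of every gene of the 8 lists, each point 1 gene, with the genes past the FDR of 5% filled and the median of each list as a bar. The transglutaminase, late and LCE lists lie around 0 with medians of -0.08, -0.06 and 0.03, and the called genes lie in the other 5 lists.

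IVL, LOR and FLG lie in one gene cluster of chromosome 1, the epidermal differentiation complex, with IVL at chr1:152908546-152911886 (GRCh38.p14). Within 1000 kb of IVL on either side, 68 of 70 RefSeq protein coding genes were on the array and 47 were tested. Of these 8 rose, IVL itself included, and 1 fell, against 0.758% higher and 0.447% lower of all tested probe sets. The median log2 change of the 68 was 0.14, against -0.02 over all tested symbols. The window was centred on IVL, itself a called gene, so its counts are a description only. The small proline-rich (SPRR) genes, which encode cross-bridging proteins of the envelope next to IVL, held 5 of the rises among 10 tested. They were SPRR1A (2.13), SPRR2D (5.22), SPRR2A (2.68), SPRR2B (3.31) and SPRR2E (2.13). LOR, 351.1 kb to one side of IVL, and FLG, on the other side, had the changes of -0.14 and -0.22 given above. The other calls in this window were rises of CRCT1 (1.86) and S100A8 (2.89) and a fall of S100A4 (-1.65). SPRR2A, SPRR2B, SPRR2E, CRCT1 and S100A8 were within background on both MCF10.AT1 arrays, so the size of their rise depends on it. With values raised to the background limit their log2 changes were 1.64, 2.75, 1.91, 0.81 and 1.56. The S100A8 call was lost in limma with A03 added (adjusted p = 0.0868).

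**Figure D4:**
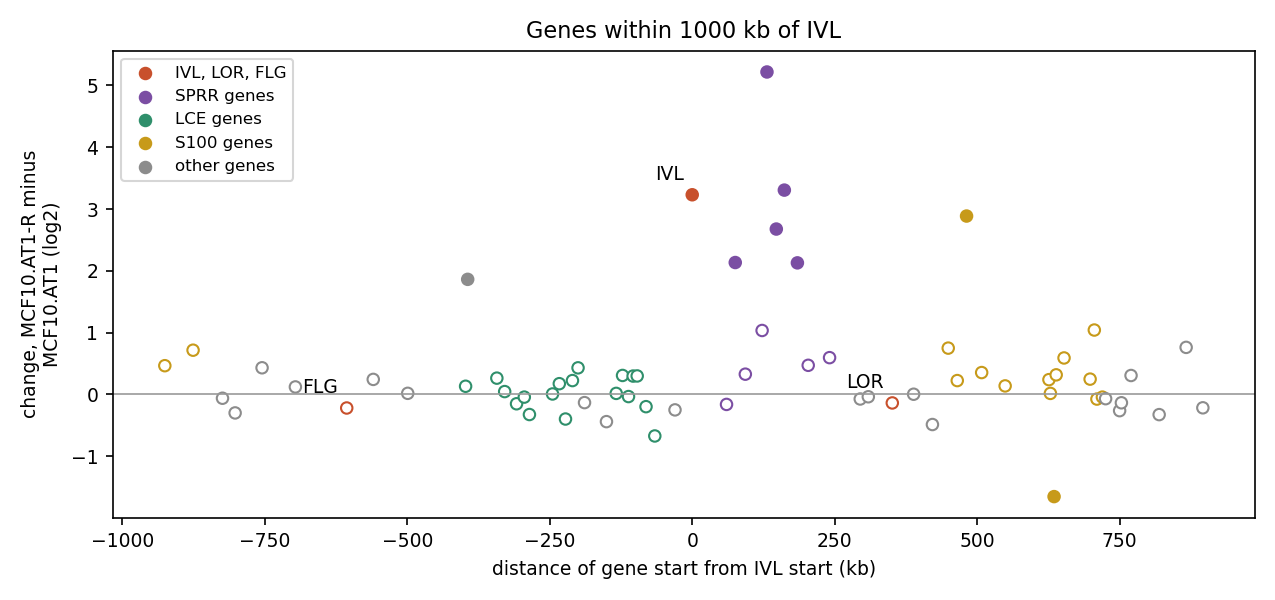
Log2 change, MCF10.AT1-R minus MCF10.AT1, of protein coding genes against their distance from IVL in kb, coloured by family, with genes past the FDR of 5% filled. The rises at IVL and in the SPRR genes stand beside LCE genes between -0.67 (LCE6A, within background) and 0.43 and beside FLG and LOR near 0. FLG was above background on no array and LOR on B04 only.

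The 5 symbols with the pattern nearest to IVL were found from the root mean square difference of values centred on their own mean over the 5 arrays. They were SPRR2B (0.104), LCN2 (0.149), S100A8 (0.232), KRT17P3 (0.246) and UGT1A1 (0.264), all among tested probe sets. KRT17P3 is a pseudogene of KRT17, which rose by 4.08, and whether its probe set also reads KRT17 was not tested. UGT1A1, like SPRR2B and S100A8, was within background on both MCF10.AT1 arrays, and its log2 change with values raised to the limit was 2.57. Its call was lost in limma with A03 added (adjusted p = 0.0663). For TGM1 the nearest were ELF3, CTD-3128G10.7, slybu, PDCL3P6 and hihime, at 0.0289 to 0.0381 and with log2 changes of -0.14 to -0.04.

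The line was checked against markers. All 8 basal breast epithelial genes were above background on all 5 arrays, and their summed log2 level was 54.1 to 55.1 in MCF10.AT1 and 67.1 to 67.3 in MCF10.AT1-R. Of the 8, KRT5 (1.71), KRT14 (2.37), KRT17 (4.08), TP63 (1.74) and CDH1 (1.30), rose alongside IVL and SCEL, and CDH3 (0.93), ITGA6 (0.35) and EGFR (0.08) did not pass. In bulk RNA a larger share of cells and more RNA per cell cannot be told apart. The summed log2 level of 6 fibroblast genes was 27.0 to 27.7 in MCF10.AT1 and 24.8 to 25.6 in MCF10.AT1-R, with DCN (-2.15) lower. COL1A1 (0.15), COL1A2 (0.13) and COL3A1 (-0.16) overlapped between the lines, and PDGFRB and LUM were within background on all 5 arrays. The sums were 12.8 to 14.9 and 13.3 to 13.99 for 4 leukocyte genes, with CD14 lower and PTPRC within background, and 11.8 to 12.0 and 10.2 to 10.9 for 3 endothelial genes, with PECAM1 lower. For 4 luminal genes they were 12.6 to 12.7 and 11.8 to 12.99, with PGR within background, and by limma 0 passed, 0 had an unadjusted p under 0.05, and 0 passed with the trend option. The CD14 call was lost in limma without any single array (adjusted p of 0.0522 to 0.454), that of PECAM1 without A01 (0.296), A02 (0.466), B02 (0.122) or B03 (0.0859), and that of CDH1 without A01 (0.0889) or A02 (0.271). With A03 added 7 of the 8 marker calls were lost, those of KRT5 (0.777), KRT14 (0.224), TP63 (0.247), CDH1, DCN, CD14 and PECAM1, and with the low-expression filter alone those of CD14 (0.115) and PECAM1 (0.123). No marker was at 0, and the part of other cells in the changes was not tested.

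A03 stood apart from the other arrays. Its hybridisation controls averaged 5.99, against 10.35 to 11.33 on the 5 arrays compared. On A03 IVL read 2.86, SCEL 2.62, TGM1 3.08, EVPL 3.83, PPL 3.67, CDSN 4.71, CNFN 4.75, KRT10 2.36, LOR 3.04 and FLG 1.30. IVL, SCEL, EVPL and KRT10 were thus lower there than on A01 and A02, and the 3 arrays of MCF10.AT1-R lay above A03 for these genes and for PPL and CDSN. EVPL did so although its lines overlapped without A03. The background probe sets of high GC content averaged 5.38 on A03 and 3.82 to 4.24 on the other arrays, and their part in the values of the 10 genes was not tested.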

How the data were processed

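Clariom D arrays measured total RNA of both lines. The deposited log2 values were made by the authors with RMA, per the labels' processing notes and the methods (affy and oligo packages). The genome build behind the probe sets is not given in the sources used here. The array names show the line (A, B) but not the replicate number. As in the methods, A03 was left out, low and invariant probe sets were removed and limma was applied. Their limits are not stated, so transcript probe sets were kept with a mean above the median (1.88) and an SD above the lowest 25% (0.18). Of 135750 transcript probe sets 51457 remained, and 2995 control probe sets were left out. limma 3.58.1 in R 4.3.3 compared the lines with no covariates, with Benjamini-Hochberg adjustment at an FDR of 5%. Genes removed by the filter were taken from the unfiltered fit. RMA shrinks low signals towards the background, so fold changes of dim genes are understated, and the number of arrays limits the precision. The fit was tested on simulated data, where it found most large changes and few small ones, and the share of false calls was above the FDR set. The 10 genes and the lists were chosen with earlier results of these data known. Named were the 10 genes, each list's called genes or else its 2 largest changes, markers, and the 5 symbols nearest in pattern to IVL and to TGM1. The SPRR genes, CRCT1, S100A4, EPPK1, LCE1B, LCE1C, LCE1E and the genes listed as within background were named after their values were seen. Alternatives were A03 included, other filters, the trend option, renewed quantile normalisation, median centring, averaged probe sets, values raised to the 95th percentile of the negative controls, and leaving out each array.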

Additional observations from a re-analysis of the deposited data

Results flagged for a closer look

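A03 entered no main comparison, only the alternative in which it was added to MCF10.AT1. On it CNFN (4.75) and CDSN (4.71) read above the 95th percentile of its negative controls and above both other MCF10.AT1 arrays. For CNFN the margin was slight, with 4.7545 on A03 and 4.7507 on A02. Both genes read below the mean of the high-GC background probe sets of A03, 5.38. The hybridisation controls of A03 averaged 5.99, so these readings were not taken as detection. No test for a single outlying array was made, since a line has at most 3 arrays.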

How the results depend on the processing

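No paired analysis was possible because the array names do not carry the replicate numbers of the labels. IVL and SCEL passed under every alternative with a test, with log2 changes of 3.04 to 3.47 and 3.38 to 3.87. CDSN stayed between 0.95 and 1.29 and PPL between 0.66 and 1.30. Calls among all tested probe sets numbered 620, against 26 with A03 added, 182 with the low-expression filter alone, 177 with no filter, 1377 with the trend option, 1086 with the trend option and the low-expression filter alone, and 271 to 595 when each array was left out in turn (314 without A01 and 271 without A02). In the same order, the listed genes that rose numbered 7, against 0, 3, 3, 11, 11, and 3 to 8 (3 without A01 and 4 without A02), and those that fell 1, against 0 with A03 added, 0 with the low-expression filter alone, 0 with no filter, and 0 to 1 with each array left out (0 without A01). The sign turned for FOXA1 (0.83) and CD3E (-0.16) with A03 added, and for COL1A2 with A03 added (-0.0715) and with probe sets averaged (-0.0056). With values raised to the negative control limit TGM7 and RPTN also turned (-0.15 each), since all their arrays were then at the limit. Leaving out single arrays also turned TGM1 (-0.30 to 0.12), EVPL (-0.11 to 0.032), CD3E (-0.11 to 0.20), ELF3 (-0.36 to 0.073), CTD-3128G10.7 (-0.27 to 0.19), slybu (-0.33 to 0.17), PDCL3P6 (-0.21 to 0.13) and hihime (-0.26 to 0.085), none of which passed the test. The causes were not tested. Genes within the negative controls, such as FLG, give no usable size of change.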
